A study of Homo sapiens with 4 samples.

Results

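The cytosolic ribosomal protein genes encode the proteins that assemble with ribosomal RNA into the large and the small subunit of the ribosome. Here they were the rows of the expression table whose symbols follow the RPL and RPS naming scheme, including RPLP0, RPLP1, RPLP2 and RPSA, and they numbered 81 of 59409 gene symbols, 49 for the large and 32 for the small subunit. Ribosomal protein genes with other symbols, such as FAU, which encodes a small subunit protein fused to a ubiquitin-like protein, are described separately. Libraries were prepared from the mRNA of the renal carcinoma line 786-O, which derives from a human clear cell tumour. The tested cells were DEK knockouts (2 libraries), made by infecting a clone that expresses Cas9 from a lentivirus with viruses carrying guides against DEK and sorting single cells. They were set against negative control cells (2 libraries, labelled wild type), whose table columns are named for Cas9. DEK encodes a DNA-binding protein of chromatin that also acts as a histone chaperone. The labels do not say which clone gave each knockout library, or whether libraries of a group were separate cultures, so each p-value rests on the spread between libraries alone, and that spread may be technical.

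Ribosomes need one copy of nearly every ribosomal protein, and unassembled ribosomal proteins are degraded. The mRNAs are abundant, short and efficiently translated. Many begin with a C followed by a run of pyrimidines, the terminal oligopyrimidine or TOP element, through which mTOR and LARP1 set their translation together. Translation itself is not read by RNA sequencing.

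Values are TPM, a level per gene length within a library, scaled to a total of 1000000 in each. Depth, estimated from the smallest steps between TPM values, was 35.8 and 40.1 in the knockouts and 38.9 and 39.6 in the controls, in units of 1000000 reads. DEK itself was at 31.4 and 15.7 TPM in the knockouts, against 95.02 and 76.3 TPM in the controls (limma log2 fold change -1.89, SE 0.33, adjusted p = 0.030). Of 8 renal epithelial and clear cell carcinoma markers 7 were above 1 TPM, PAX8 at 140 to 160 TPM in the knockouts and 142 to 153 TPM in the controls among them, and NDUFA4L2 was at or near 0. Blood and endothelial markers summed to under 1 TPM in every library, and fibroblast markers to 2.27 to 2.99 TPM in the knockouts and 2.60 to 3.04 TPM in the controls. Chromosomes differed between the knockout libraries: outside the ribosomal protein genes, the median log2 difference of knockout 2 minus knockout 1 was -0.17 on chromosome 1 and 0.21 on chromosome 7.

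Transcription starts of some of the members described below follow, and most of those shown have the shared TOP element. The starts are printed because most of the members past the test carry it, whichever way they moved. Each line runs from 10 bases before to 20 bases from the annotated start, taken from RefSeq on GRCh38.p14, 5′ to 3′ on the strand of the gene, with the unbroken run of C and T from a starting C in capitals.
RPLP0 (chr12:120201092-120201121, minus strand): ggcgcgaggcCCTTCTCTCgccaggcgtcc
RPL13A (chr19:49487598-49487627, plus strand): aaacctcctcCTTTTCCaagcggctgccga
RPL7A (chr9:133348208-133348237, plus strand): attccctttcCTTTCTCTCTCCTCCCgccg
RPL3 (chr22:39319604-39319633, minus strand): gccgaccggcCTCTaccggcgggatttgat
RPL38 (chr17:74203668-74203697, plus strand): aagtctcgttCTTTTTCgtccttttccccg
RPSA (chr3:39406710-39406739, plus strand): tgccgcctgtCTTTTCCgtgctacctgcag
RPS12 (chr6:132814559-132814588, plus strand): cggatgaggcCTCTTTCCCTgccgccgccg
RPS3A (chr4:151099618-151099647, plus strand): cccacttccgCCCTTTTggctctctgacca
RPS27L (chr15:63157458-63157487, minus strand): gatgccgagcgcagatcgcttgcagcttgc
Of 64 members with an annotated start in that table, 46 (71.9%) had a start at which C was followed by 4 bases that were each C or T, searched on the strand of the gene at the start base only. The share among all 27305 genes of the table was 5.14%, and among 68 mitochondrial ribosomal protein genes it was 8.82%. RPL38, whose mRNA was higher in the knockouts, and RPLP0, whose mRNA was lower, both have it. RPL3 has a run of only 4 bases, and RPS27L, a paralog of RPS27, has none. Members with the element (46 tested) and without it (17 tested) had median log2 fold changes of -0.12 and -0.12.

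Most ribosomal protein mRNAs were slightly lower in the knockouts, and none reached a 2-fold change on the log2(TPM + 1) scale. The 49 large subunit rows summed to 40878 and 41495 TPM in the knockouts, against 45704 and 45281 TPM in the controls. The 32 small subunit rows summed to 30999 and 31018 TPM in the knockouts, against 35319 and 35443 TPM in the controls. Both sums were lower in both knockouts than in both controls, by 9.46% for the large and 12.4% for the small subunit. Together the members held 7.19% and 7.25% of all TPM in the knockouts, against 8.10% and 8.07% in the controls. The sum for the large subunit was 1.32 and 1.34 times that for the small subunit in the knockouts, against 1.29 and 1.28 times in the controls. TPM are shares of a library, and genes of the mitochondrial genome held 16.4% and 16.5% in the knockouts, against 17.2% and 19.0% in the controls. With TPM rescaled without those genes both sums were lower still, at 0.887 times control for the large and 0.858 times for the small subunit. In bulk RNA, fewer cells of a kind and less RNA per cell cannot be told apart.

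Of 46 tested large subunit genes 6 fell and 1 rose, and of 32 tested small subunit genes 4 fell and 0 rose (limma, adjusted p under 0.05 over 15815 genes). Over all genes tested the call was made for 17.7%, for 8.67% as lower and for 9.06% as higher. The members called lower were 13.0% of the large and 12.5% of the small subunit genes, which is near that background. At an unadjusted p under 0.05, 16 large and 16 small subunit genes were lower and 2 large and 0 small subunit genes were higher, where the shares over all genes tested were 21.4% lower and 16.9% higher. Median log2 fold changes were -0.09 for the large and -0.17 for the small subunit, against -0.06 over all genes tested. With median-ratio scaling, which moved the median of all genes to -0.006, they were -0.034 and -0.11, and 3 large and 1 small subunit genes passed as lower, against 6.04% of all genes. Both knockouts lay below both controls for 31 of 46 large (67.4%) and 22 of 32 small subunit genes (68.8%), where the share over all genes tested was 39.0%. Both lay above for 5 large and 5 small subunit genes, where that share was 29.2%. The members had smaller standard errors (median 0.062, against 0.150 over all genes tested), and with less spread groups separate more easily at the same shift. For mitochondrial ribosomal protein genes both knockouts lay below both controls in 57.9% and above in 15.8%. Without control replicate 1, or without control replicate 2, 0 members of either subunit passed, and 47 and 51 genes passed in all. Without knockout replicate 1, 13 large and 12 small subunit genes passed as lower and 4 and 1 as higher, while 20.7% of all genes passed as lower and 15.7% as higher. Without knockout replicate 2, 10 and 10 passed as lower and 1 and 0 as higher, while the shares of all genes were 11.2% and 9.21%.

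**Figure D1:**
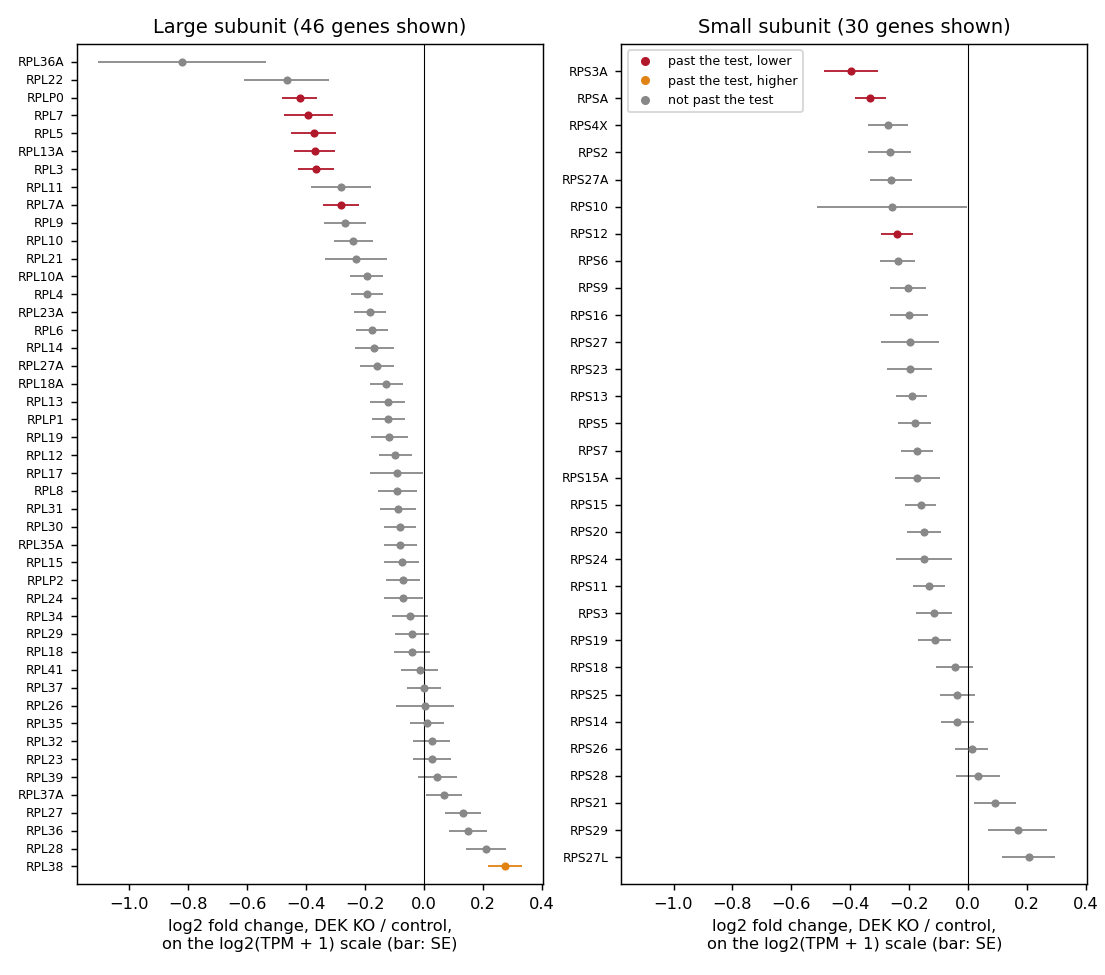
The log2 fold change of DEK knockout over control, on the log2(TPM + 1) scale, is plotted for 46 large and 30 small subunit genes, with bars for the limma standard error and colours for genes past the test. Most points lie left of 0, from RPL36A at -0.82 to RPL38 at 0.27.

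Among large subunit genes RPLP0, which encodes the base of the stalk that recruits translation factors, had the smallest p (chromosome 12, 120196686 to 120201235, minus strand, GENCODE 29 on GRCh38). It was at 1472 and 1532 TPM in the knockouts, against 2044 and 1979 TPM in the controls. Both knockouts lay below both controls, and the fall was 1.34-fold (log2 fold change -0.42, SE 0.06, limma adjusted p = 0.021). Its partners in the stalk did not pass. RPLP1 was at 1326 and 1383 TPM in the knockouts, against 1482 and 1462 TPM in the controls (adjusted p = 0.19). RPLP2 was at 1749 and 1799 TPM in the knockouts, against 1892 and 1833 TPM in the controls (adjusted p = 0.41). RPL3, a protein next to the peptidyl transferase centre (chromosome 22, 39312882 to 39320389, minus strand), was at 1862 and 1980 TPM in the knockouts, against 2506 and 2448 TPM in the controls, a 1.29-fold fall (log2 fold change -0.37, SE 0.06, adjusted p = 0.028).

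RPL5 and RPL11 form, with the smallest rRNA of the large subunit, the particle that also binds MDM2. RPL5 (chromosome 1, 92831983 to 92841924, plus strand) was at 1130 and 1056 TPM in the knockouts, against 1351 and 1484 TPM in the controls, a 1.30-fold fall (log2 fold change -0.37, limma adjusted p = 0.039). RPL11 was at 1185 and 982 TPM in the knockouts, against 1321 and 1303 TPM in the controls. It lay lower in both knockouts and did not pass (adjusted p = 0.12). RPL5 did not pass with the trend of fold change on GC content removed (log2 fold change -0.07, adjusted p = 0.69). Without either control it did not pass (adjusted p = 0.16 and 0.22).

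RPL13A, which outside the ribosome is known for silencing inflammatory mRNAs in human monocytic cells (chromosome 19, 49487554 to 49492308, plus strand), was at 1199 and 1109 TPM in the knockouts, against 1527 and 1457 TPM in the controls. The groups did not overlap, with a log2 fold change of -0.37 (adjusted p = 0.032, limma). RPL7A (chromosome 9, 133348214 to 133351426, plus strand), the member of the large subunit with the highest mean, was at 2668 and 2816 TPM in the knockouts, against 3378 and 3277 TPM in the controls (log2 fold change -0.28, adjusted p = 0.044). RPL7 (chromosome 8, 73290267 to 73295789, minus strand) was at 556 and 557 TPM in the knockouts, against 682 and 783 TPM in the controls (log2 fold change -0.39, adjusted p = 0.043). With the GC trend removed the log2 fold change of RPL7 was -0.15 (adjusted p = 0.43). RPL38 (chromosome 17, 74203582 to 74210655, plus strand), which in the mouse is needed for translation of a set of Hox mRNAs, was the member called higher. It was at 506 and 529 TPM in the knockouts, against 429 and 425 TPM in the controls, 1.21 times as high (log2 fold change 0.27, SE 0.06, adjusted p = 0.042). RPL38 and RPL7A did not pass with the replicate number as a block (adjusted p = 0.076 and 0.081), and RPL5 did not either (0.056). RPL38 also missed the threshold after quantile normalization (0.059), and RPL7 without knockout replicate 2 (0.0504). With median-ratio scaling RPL7A, RPL5 and RPL7 did not pass (0.071, 0.073 and 0.080), and with the transcript length trend removed RPL5 and RPL7 did not (0.051 and 0.053). Without control replicate 1 the adjusted p of the large subunit genes named as passing lay between 0.14 and 0.28, and without control replicate 2 between 0.13 and 0.27.

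Of the small subunit genes RPSA, also known as the laminin receptor (chromosome 3, 39406689 to 39412542, plus strand), had the smallest p. It was at 1171 and 1171 TPM in the knockouts, against 1459 and 1487 TPM in the controls, a 1.26-fold fall (log2 fold change -0.33, SE 0.05, limma adjusted p = 0.027). Its knockout libraries hardly differed from each other, and both were below both controls. RPS3A (chromosome 4, 151099573 to 151104652, plus strand) was at 715 and 769 TPM in the knockouts, against 909 and 1048 TPM in the controls (log2 fold change -0.40, adjusted p = 0.048), and it did not pass with the GC trend removed (-0.20, adjusted p = 0.30). With that trend removed RPSA and RPS12 lay just outside the threshold (adjusted p = 0.0502 and 0.051). RPS12 (chromosome 6, 132814441 to 132817564, plus strand) was at 1951 and 1936 TPM in the knockouts, against 2329 and 2268 TPM in the controls (log2 fold change -0.24, adjusted p = 0.047). RPS12 was not past the test with the replicate block (adjusted p = 0.095). With median-ratio scaling RPS12 and RPS3A did not pass (adjusted p = 0.086 and 0.089), and RPS3A did not with the transcript length trend removed (0.053). Without control replicate 1 the adjusted p of RPSA, RPS3A and RPS12 lay between 0.14 and 0.33, and without control replicate 2 between 0.19 and 0.25. RPS6, the substrate for which S6 kinase is named, was at 723 and 757 TPM in the knockouts, against 858 and 889 TPM in the controls, and did not pass (adjusted p = 0.057).

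**Figure D2:**
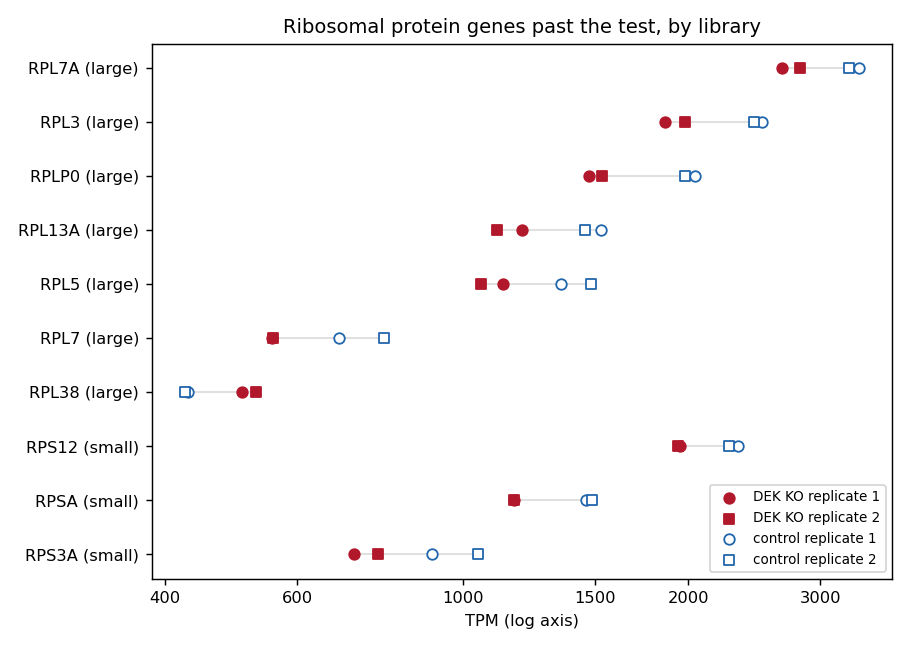
TPM on a log axis in each of 4 libraries for 10 of the members past the test, with DEK knockouts as filled and controls as open symbols. For 9 genes both knockouts lie below both controls, and for RPL38 they lie above.

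Levels varied widely between members. In the large subunit the 5 highest rows by mean TPM were RPL7A, RPL35, RPL12, RPL3 and RPLP2. RPL35 was at 2841 and 2879 TPM in the knockouts, against 2903 and 2775 TPM in the controls, RPL12 at 2202 and 2267 TPM in the knockouts, against 2430 and 2348 TPM in the controls, and neither passed. The median of the 46 tested large subunit genes was at 784 and 777 TPM in the knockouts, against 877 and 872 TPM in the controls. In the small subunit the 5 highest rows, among them RPS2, RPS18, RPS27 and RPS12, held 44.4% and 42.8% of the subunit's sum in the knockouts, against 44.8% and 44.1% in the controls. RPS2 was at 3791 and 4208 TPM in the knockouts, against 4833 and 4777 TPM in the controls, a log2 fold change of -0.27 just outside the threshold (adjusted p = 0.067). RPS18 was at 3647 and 3438 TPM in the knockouts, against 3699 and 3610 TPM in the controls, with overlapping groups.

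The lowest rows are uncertain as measures of these mRNAs. RPS10 was at 1.12 and 0.537 TPM in the knockouts, against 1.34 and 0.990 TPM in the controls. RPL36A was at 0.344 and 0.920 TPM in the knockouts, against 2.29 and 1.45 TPM in the controls. RPL26, RPL17, RPS29, RPS27L and RPS15A lay between 23.4 and 53.9 TPM in all libraries, and RPL22 and RPL14 between 53.1 and 117 TPM. In GENCODE 29 RPS10 shares 39.4% of its exon bases with the readthrough gene RPS10-NUDT3 on the same strand, RPL17 32.7% with RPL17-C18orf32 and 3 snoRNA genes, and RPL36A 8.4% with RPL36A-HNRNPH2. How reads shared between genes were counted is not given in the sources used here, and the part of this sharing in the low levels was not tested. TPM divides by a gene length that depends on the annotated isoforms, and the lengths used by the authors are not known here.

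The tissue-restricted paralogs were listed at or near 0, which in a table without read counts does not show that a gene was silent, since EEF1G, used by every cell, was listed at 0 as well. RPL10L, known from the testis, was listed at 0 in all libraries, RPL3L, known from skeletal and heart muscle, reached 0.045 TPM in knockout 2 and 0 elsewhere, and RPL39L reached 0.096 TPM in control 1 and 0 elsewhere. These 3 rows did not reach 1 TPM in 2 libraries and were the members not tested. RPS27L was at 27.3 and 28.6 TPM in the knockouts, against 23.5 and 24.8 TPM in the controls, and did not pass (log2 fold change 0.21, limma adjusted p = 0.17).

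The size of the difference followed the annotated coding length. Over 75 members with a mean of at least 10 TPM, the log2 fold change and the log10 coding length of the principal transcript had a Pearson's r of -0.64 and a Spearman's rho of -0.68, across genes that share libraries and are not independent replicates. All 42 members with a coding length above 450 bases had a negative log2 fold change on the TPM scale. This count depends on the scale. Median-ratio scaling moved RPL7A from -0.28 to -0.22, while RPS14 (453 bases) and RPL18 (564 bases) were at only -0.04 before that scaling. That scaling divides every gene of a library by the same factor, so RPS14 and RPL18 would lie above 0 with it. Not all 42 would then be negative, and the full count was not repeated. On the TPM scale the 19 members of 451 to 600 bases had a median of -0.13, the 15 of 601 to 800 bases -0.24, and the 8 longer ones -0.30. The 8 include RPS24 at -0.15, for which the chosen transcript has 867 coding bases. Coding length was that of the transcript tagged principal, or else the longest, and it depends on that choice. Other isoforms were not examined. Of 33 members up to 450 bases 15 had a positive and 18 a negative value, with a median of -0.01. RPL38, RPL28, RPS27L, RPS29, RPL36 and RPL27 were among the positive ones, and of these only RPL38 passed the test. RPL28 was at 161 and 171 TPM in the knockouts, against 145 and 142 TPM in the controls (adjusted p = 0.091). RPL36 was at 576 and 612 TPM in the knockouts, against 548 and 524 TPM in the controls (adjusted p = 0.16).

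The relation had a rho of -0.70 over 45 large and -0.66 over 30 small subunit genes. With each knockout set against the mean of the same controls, rho was -0.73 for knockout 1 and -0.64 for knockout 2. Between the controls (control 2 minus control 1) it was 0.10, and between the knockouts (knockout 2 minus knockout 1) it was -0.0034. Over 1530 other protein-coding genes of at least 100 TPM rho was -0.032, and over 76 mitochondrial ribosomal protein genes -0.13. Other genes of at least 100 TPM with up to 450 coding bases had a median log2 fold change of -0.02 (190 genes), and those above 800 bases -0.01 (997 genes). GC content of the longest transcript, which followed the fold change over other coding genes (rho 0.43 over 11554), had a rho of 0.14 over the members. Between the controls it had a rho of -0.54 over the members. Other lengths of the same 75 members followed the fold change less closely or not at all. Transcript length had a rho of -0.43 with the fold change, and exon length over all isoforms merged had a rho of 0.0037. With the GC trend removed the relation with coding length had a rho of -0.55, with the transcript length trend removed -0.65, with pseudogene rows added to their members -0.64, and without the members on chromosome 1 -0.74. The cause of the relation was not tested.

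**Figure D3:**
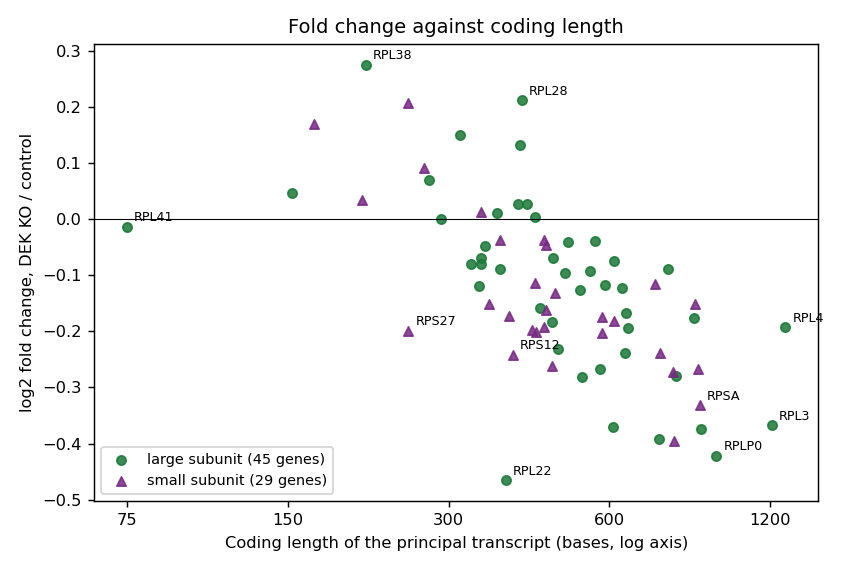
The log2 fold change of DEK knockout over control is plotted against coding length on a log axis for 45 large and 29 small subunit genes with a mean of at least 10 TPM. The point highest on the axis is RPL38 (0.27, 210 bases), RPL3 lies at -0.37 (1209 bases), and RPL22 lies at -0.46 with 384 bases.

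The 5 members on chromosome 1, among them RPL22, RPL11, RPL5 and RPS27, differed between the knockout libraries. Their log2 differences of knockout 2 minus knockout 1 ran from -0.39 to -0.10, with a median of -0.25, against a median of -0.17 over 1599 other genes of that chromosome. Those other genes also had a median log2 fold change of -0.17 for knockout over control, in the direction of the 5 members (median -0.37). The 70 members elsewhere with a mean of at least 10 TPM ran from -0.12 to 0.16, with a median of 0.03. RPL22 was at 70.0 and 53.1 TPM in the knockouts, against 86.2 and 82.96 TPM in the controls, and did not pass (log2 fold change -0.46, SE 0.14, limma adjusted p = 0.086). RPS27, a small subunit protein with a zinc finger, was at 2323 and 1952 TPM in the knockouts, against 2402 and 2488 TPM in the controls (adjusted p = 0.21). For each of these 4 named genes knockout 2 was the lowest of the 4 libraries. The excess of knockout 2 over knockout 1 was largest for RPS28 (463 and 517 TPM in the knockouts, against 477 and 478 TPM in the controls) and RPS2 among small subunit genes. Among large subunit genes it was largest for RPL36A and RPL10 (817 and 890 TPM in the knockouts, against 1020 and 993 TPM in the controls). Without the chromosome 1 members 5 large and 3 small subunit genes were called lower, with medians of -0.09 and -0.17. Genomic copy number was not measured in these libraries, and its part in the chromosome 1 difference was not tested.

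**Figure D4:**
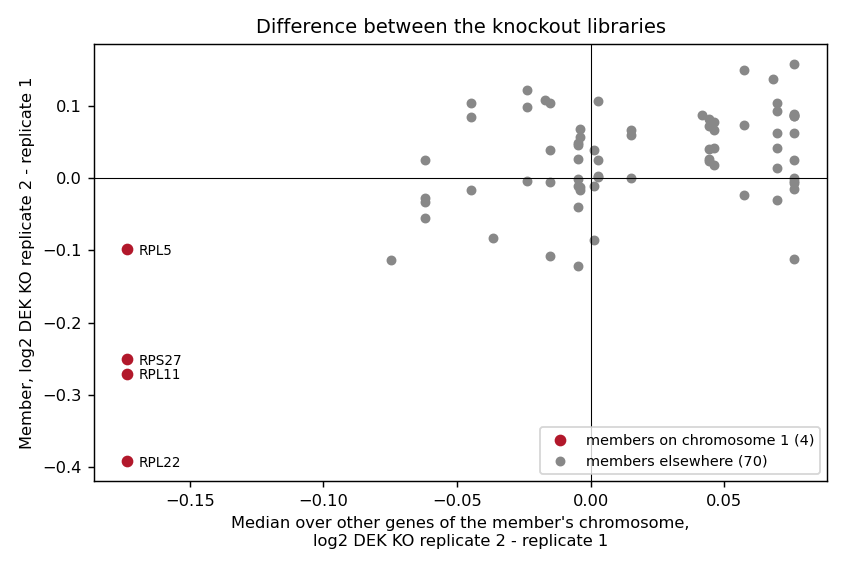
For 74 members the log2 difference between the knockout libraries is plotted against the median difference of the other genes on its chromosome. The 4 plotted members on chromosome 1 lie at the lower left, from -0.39 to -0.10, and the other 70 between -0.12 and 0.16.

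Ribosomal protein genes outside the naming rule did not pass in either direction (0 of 7, 1 with an unadjusted p under 0.05). FAU was at 412 and 434 TPM in the knockouts, against 404 and 387 TPM in the controls (limma adjusted p = 0.32). Both knockouts lay slightly above both controls. RACK1, a scaffold protein bound to the small subunit, was at 1564 and 1492 TPM in the knockouts, against 1763 and 1695 TPM in the controls (limma adjusted p = 0.10). RPL22L1, the paralog of RPL22, had overlapping groups, with 13.9 and 18.1 TPM in the knockouts and 16.2 and 15.3 TPM in the controls.

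Among 16 tested translation factors and other proteins known for TOP mRNAs 6 fell (37.5%) and 1 rose (6.25%), with a median log2 fold change of -0.21. Over all genes tested 8.67% were called lower and 9.06% higher. EEF1A1, the elongation factor that brings aminoacyl-tRNA to the ribosome, was at 1026 and 1018 TPM in the knockouts, against 1441 and 1497 TPM in the controls, a 1.44-fold fall (log2 fold change -0.52, SE 0.06, adjusted p = 0.016, limma). NPM1, a nucleolar protein of ribosome assembly, fell to 491 and 492 TPM in the knockouts, against 672 and 640 TPM in the controls. HNRNPA1, an RNA-binding protein, fell 1.32-fold. The others that fell were TPT1, EIF4B and NAP1L1, and EIF4A2, a helicase of translation initiation, rose to 214 and 218 TPM in the knockouts, against 154 and 167 TPM in the controls. EEF1G, a subunit of the nucleotide exchange complex of EEF1A1, was at 0 in all libraries. Of 12 snoRNA host genes listed for TOP starts, 10 of them annotated as noncoding, 0 passed, with a median of 0.10. An unadjusted p under 0.05 was found for 3, lower for TAF1D, which is protein-coding, and higher for SNHG8 and SNHG32, the second of which is annotated as protein-coding. Of 20 regulators of this translation 2 fell (10%), near the share over all genes tested, and the median was -0.22. They were MLST8, an mTOR complex subunit (log2 fold change -0.54), and EIF4EBP2, a translation repressor (-0.44).

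Of 32 chaperones and assembly factors 2 fell (6.25%), with a median of -0.04, where 8.67% of all genes tested were lower and 9.06% higher. They were RPF1 and RSL24D1, which act in assembly of the large subunit, with log2 fold changes of -0.53 and -0.51. A further list of 11 was drawn up under the name of sensors of unassembled ribosomal proteins. That name is loose, and several of its entries, RNF10 and CDKN1A among them, are not such sensors. In it 2 were called lower (18.2%) and 1 higher (9.09%), and the median log2 fold change was -0.25. The ubiquitin ligase gene RNF10 fell by 0.35 on the log2 scale (limma adjusted p = 0.041). The gene of this list that rose was CDKN1A, a cyclin-dependent kinase inhibitor. It was at 732 and 739 TPM in the knockouts, against 324 and 315 TPM in the controls. Of 76 tested mitochondrial ribosomal protein genes 8 fell and 1 rose (10.5% and 1.32%), with a median of -0.18, close to that of the cytosolic small subunit. MRPS28 was the lowest of them relative to control, at 7.97 and 7.61 TPM in the knockouts, against 16.2 and 15.5 TPM in the controls. MRPL40 rose, at 134 and 130 TPM in the knockouts, against 108 and 104 TPM in the controls.

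Many processed copies of ribosomal protein genes lie in the genome, and reads from them and from their parents can be misassigned. The 1283 pseudogene rows summed to 3189 and 3224 TPM in the knockouts, against 3615 and 3715 TPM in the controls, which is 4.44% and 4.45% of the members' sum in the knockouts and 4.46% and 4.60% in the controls. RPL41P1 alone held 1680 and 1563 TPM in the knockouts, against 1912 and 2027 TPM in the controls, more than RPL41 itself at 1017 and 1067 TPM in the knockouts, against 1080 and 1025 TPM in the controls. RPL41 is thus uncertain. Of 140 tested pseudogene rows 1 fell (0.714%) and 5 rose (3.57%), where 8.67% of all genes tested were lower and 9.06% higher. RPL10P13, on chromosome 12 from 75688794 to 75689096, rose to 27.4 and 56.1 TPM in the knockouts, against 1.63 and 2.20 TPM in the controls (log2 fold change 3.79, limma adjusted p = 0.013). It lies on the minus strand within the span of the noncoding gene AC078923.1, on the same strand, which had a log2 fold change of 4.18, while RPL10 was lower in both knockouts (adjusted p = 0.072).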

How the data were processed

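The authors deposited 1 table of TPM for 59409 gene symbols and 4 libraries, and each column sums to 1000000. Per the submitters' processing notes, hg38 and the tools featureCounts 2.0.1, STAR 2.7.8a, DESeq2 1.36.0 and cutadapt 1.18 were used, with no roles named. The sources used here give neither the annotation and gene lengths nor how strand was treated. Groups and replicate numbers came from the titles. The 15815 genes that reached 1 TPM in 2 or more libraries were fitted as log2(TPM + 1) with limma 3.58.1 in R 4.3.3. The model held group alone, the prior variance followed mean expression (trend), and p-values were adjusted by Benjamini-Hochberg over all 15815 genes, with a threshold of 0.05. These fold changes understate changes of low genes. The procedure was tested on simulated data. An exact permutation test with 2 libraries per group cannot go below p = 0.333 and was not used.

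Positions, coding lengths and GC content came from GENCODE 29, to which 54390 symbols matched by name and 2194 through current symbols. Depth was estimated from steps of low TPM values: of values under 200 estimated reads, 54.6% to 56.4% came within 0.02 of a whole number (chance gives 4%), too few for a count test. The members and lists were chosen with earlier results of these data known. Values are given for members past the test, the 5 highest and 5 lowest of each subunit, the paralogs and the members that differed most between the knockouts. A few genes covered by that rule are not reported here. Members named elsewhere were chosen after their values were seen.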

Additional observations from a re-analysis of the deposited data

How the results depend on the processing

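The direction of all 11 members past the test held under every alternative run. All 11 still passed with a filter of 5 TPM, after rescaling without mitochondrial genome or ribosomal protein genes, and with pseudogene rows added, and 10 did with a pseudocount of 0.1 (RPS3A missed). Without a filter on low values, where 31270 genes were tested, and with a variance prior without trend, 0 large and 0 small subunit genes passed as lower and 0 as higher, with 26 and 1437 calls over all genes. With the 5 TPM filter 8 small subunit genes were lower, but so were more genes in all, 1598 of 10966 tested, against 1371 of 15815 in the main run. Median-ratio scaling left 3 large and 1 small subunit genes lower, medians of -0.034 and -0.11 and summed ratios (DEK knockout to control) of 0.944 and 0.914, and moved the share of higher calls to 62.4%, against 51.1%. That share was 100% without a filter and 60.3% without the trend. Quantile normalization gave 13 large and 10 small subunit genes lower, 0 large higher, and medians of -0.18 and -0.21, while 7.45% of all genes were lower. Without mitochondrial genome genes medians were -0.12 and -0.20 and summed ratios 0.887 and 0.858, and without ribosomal protein genes the small subunit values were -0.19 and 0.868. With the GC trend removed 2 small subunit genes were lower (median -0.12), and with the transcript length trend removed 2 (median -0.18). Over all 15815 genes tested 1151 and 1073 were lower in these runs. Without chromosome 1 members the small subunit median was -0.17 and its ratio 0.887, and with pseudogene rows added the median was -0.16. The last 3 kinds of setting (length trend, chromosome 1, pseudogene rows) were chosen after the data were seen. Leaving out 1 library at a time gave 0 to 13 large subunit genes lower and 0 to 4 higher, 0 to 12 small subunit genes lower and 0 to 1 higher, small subunit medians of -0.17 to -0.15, and 47 to 5510 calls over all genes. The lone remaining library of a group was then assumed to vary like the other group. With the replicate block 4 large and 3 small subunit genes were lower, 0 large higher, and 2971 genes were called in all. Samples with the same number share only a number: their deviations correlated at 0.0989 over genes tested and at -0.185 over members. Causes of these shifts were not tested. With 2 libraries per group, small changes of low members were not detectable.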
